A study of Rattus norvegicus with 31 samples.

Results

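The 10 genes described here encode enzymes that make bile acids in the liver and proteins that control that synthesis: Cyp7a1, Cyp8b1, Cyp27a1, Cyp7b1, Akr1d1, Baat, Slc27a5, Nr0b2, Nr1h4 and Fgfr4. They were taken from the tables by symbol, and all 10 were found among the 26312 rows of the count table and among the 19904 genes tested, those whose counts summed to 2 or more. Total RNA of the liver was sequenced from 31 young adult female Wistar rats (Crl:WI), gavaged daily for 28 days. Imazalil (IMZ) is an azole fungicide, and thiacloprid (THI) and clothianidin (CTD) are neonicotinoid insecticides. The 8 control rats received the vehicle, aqueous carboxymethyl-cellulose, which all treated rats received too. Daily doses per kg body weight were 108 mg for THI (n = 4), 93 mg for IMZ (n = 4) and 288 mg for CTD (n = 3). The mixtures, with n = 4 each, combined 54 mg THI with 46 mg IMZ (THI+IMZ), 54 mg THI with 134 mg CTD (THI+CTD) and 46 mg IMZ with 135 mg CTD (IMZ+CTD). The CTD group held 3 rats, and the study's design table marks it as one from which at least 1 animal was killed in moribund condition. Each compound and mixture was also given at other doses, which were not sequenced.

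Bile acids are the main route by which the body disposes of cholesterol. In the classical pathway Cyp7a1 adds the hydroxyl group that commits cholesterol to this fate, and Cyp8b1 decides how much of the product becomes cholic acid. In the acidic pathway Cyp27a1 and Cyp7b1 take over the first steps, while Akr1d1 reduces the steroid ring in both routes. Slc27a5 activates bile acids with coenzyme A and Baat couples them to taurine or glycine before export into bile. Bile acids limit their own synthesis: they activate the nuclear receptor FXR (Nr1h4), which raises the corepressor SHP (Nr0b2) in the hepatocyte and the hormone FGF15/19 in the gut, and the latter acts on the hepatocyte through the receptor Fgfr4.

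Levels are given as CPM, counts per 1e+06 counts of the scaled library, and differences as log2 fold changes ± SE from the quasi-likelihood test of edgeR with Benjamini-Hochberg adjustment over all 19904 genes, with a threshold of 0.05. Levels of different genes were not compared, since no transcript lengths were used. Library totals (in 1e+06 counts) ran from 31.82 to 101.2, with a median of 60.48 in controls and 40.22 in treated rats. Counts of the 10 genes ranged from 85 for Cyp7b1 to 99773 for Slc27a5 in a single library. The 10 listed hepatocyte markers summed to between 170200 and 262800 CPM in every library, while the 9 cholangiocyte markers summed to 11.41 to 23.15 CPM. In bulk liver RNA, fewer hepatocytes and less RNA per hepatocyte cannot be told apart.

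SHP acts at promoters bound by the receptor LRH-1 (Nr5a2), which recognizes elements built around CAAGG. To show what such promoters look like, the 250 bases before the annotated start of Nr0b2 and Cyp8b1 are printed from RefSeq (build GRCr8), since Nr0b2 encodes SHP and Cyp8b1 is a known target of that control. Capitals mark every match, on either strand, to CAAGGNCA or to TCAAGG, which overlap when a T precedes the former. The Nr0b2 window lies at chr5:151062910-151063159 on the + strand and the Cyp8b1 window at chr8:130457593-130457842 on the - strand.
Nr0b2: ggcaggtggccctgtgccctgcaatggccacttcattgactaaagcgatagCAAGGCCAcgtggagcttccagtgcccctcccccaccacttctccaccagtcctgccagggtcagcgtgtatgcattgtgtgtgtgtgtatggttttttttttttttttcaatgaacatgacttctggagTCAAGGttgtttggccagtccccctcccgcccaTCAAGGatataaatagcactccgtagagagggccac
Cyp8b1: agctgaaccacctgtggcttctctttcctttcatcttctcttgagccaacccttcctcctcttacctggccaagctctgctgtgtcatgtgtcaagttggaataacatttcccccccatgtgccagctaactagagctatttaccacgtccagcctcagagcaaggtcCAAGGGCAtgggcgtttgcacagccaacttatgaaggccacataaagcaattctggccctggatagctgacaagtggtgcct
Of the 10 genes, 6 had a promoter in the table, and Cyp7a1, Cyp7b1, Nr1h4 and Akr1d1 had none there. CAAGGNCA occurred in Nr0b2, Cyp8b1 and Cyp27a1 and in 5.58% of all 33469 windows of this length. TCAAGG occurred in Nr0b2, at 69 and at 36 bases before the start, and in 12.6% of all windows. A match describes the letters only and shows no binding.

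Cyp7a1 (ENSRNOG00000009488), the rate-limiting enzyme of the classical pathway, was low in the rats given THI or THI+IMZ. Its level spread widely in most groups, THI included (coefficient of variation 44.8%). In control rats its level was 282, 88.5, 186, 81.9, 293, 285, 281 and 385 CPM, a mean of 235 ± 107 (SD, n = 8). Replicates 2 and 4 stood apart below the other 6 control rats, which all had 186 CPM or more. With THI the level was 44.1, 60.7, 51.3 and 15.95 CPM, so that every treated rat lay below every control. With THI+IMZ it was 42.2, 19.3, 31.5 and 32.9 CPM, again below every control and with the lowest spread of any group (coefficient of variation 29.9%).

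Against control, Cyp7a1 fell to 18.3% with THI (log2 fold change -2.45 ± 0.55, adjusted p = 0.0275, edgeR). With THI+IMZ it fell to 13.4% (log2 fold change -2.90 ± 0.56, adjusted p = 0.00551, edgeR). Cyp7a1 was the only one of the 10 genes past the threshold in each of these comparisons, against 0.543% of all genes with THI and 1.18% with THI+IMZ. Every treated rat lay below every control for 0.688% of all genes with THI and for 0.663% with THI+IMZ. The THI call did not survive the omission of any single THI rat, with adjusted p values between 0.0577 and 0.118, while the THI+IMZ call held without any 1 of the 31 rats, with a highest adjusted p of 0.0288. Thinning each library to the total of the shallowest one gave -2.46 for THI and -2.89 for THI+IMZ, with all libraries at equal size.

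In the other 4 groups Cyp7a1 was lower on average but did not pass the threshold. The rats given IMZ had 51.7, 469, 143 and 171 CPM, which includes both the highest level of all 31 rats and a level below every control. The fitted log2 fold change with IMZ was -0.17 ± 0.48 (adjusted p = 0.966), with an approximate 95% interval from -1.12 to 0.78. The rats given CTD had 85.9, 161 and 41.3 CPM (log2 fold change -1.29 ± 0.57, adjusted p = 0.151). THI+CTD gave 108, 110.1, 132 and 46.6 CPM (-1.24 ± 0.51, adjusted p = 0.184) and IMZ+CTD gave 46.0, 70.0, 203 and 29.7 CPM (-1.43 ± 0.52, adjusted p = 0.193). In these 3 groups every rat lay below the control median of 281 CPM, although all 3 overlapped with the controls.

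**Figure D1:**
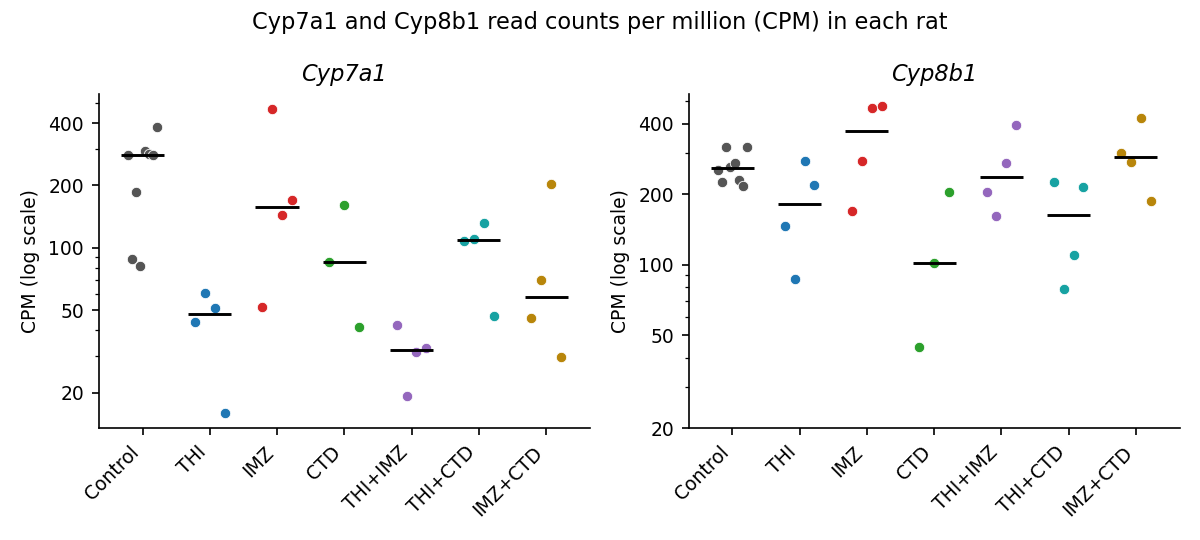
Level in CPM of Cyp7a1 (left) and Cyp8b1 (right) on a log scale for each of 31 rats by group, with a black line at the group median. Cyp7a1 was below all 8 controls in every THI and every THI+IMZ rat, and Cyp8b1 was below all 8 controls in the 3 CTD rats at 44.3, 101 and 204 CPM.

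Whether the treatments differed from each other was tested with 1 F test over the 6 treated groups. Cyp7a1 was the only one of the 10 genes past the threshold there (adjusted p = 0.0200, edgeR, 5.82% of all genes called). DESeq2 called 5 of the 10 in the same test: Cyp7a1, Cyp8b1 (adjusted p = 0.0182), Cyp27a1 (0.0444), Cyp7b1 (0.0166) and Akr1d1 (0.0282). Over all genes, edgeR called 1159 in this test and 553 without CTD replicate 1. The fitted log2 fold changes behind it ran from -2.90 with THI+IMZ to -0.17 with IMZ. The call was lost when the IMZ rat at 469 CPM was left out (adjusted p = 0.104). THI and CTD are both neonicotinoids, but they were given at different doses (108 and 288 mg/kg), so their values of -2.45 and -1.29 stand side by side only.

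Cyp8b1 (ENSRNOG00000019481), the 12α-hydroxylase required for cholic acid, was low with CTD. Control rats ranged from 216 to 318 CPM with a median of 259 CPM, a narrow range beside that of Cyp7a1. The 3 CTD rats had 44.3, 101 and 204 CPM, all below the lowest control. The fall to 44.5% of control passed the threshold (log2 fold change -1.17 ± 0.39, adjusted p = 0.0430, edgeR), in a comparison in which 12.7% of all genes were called and every treated rat lay below every control for 5.48% of them. The 12.7% stands for 2518 genes, and 1470 were called without CTD replicate 1. This call ended without any one of 6 rats: CTD replicates 1 and 2 and control replicates 1, 3, 5 and 8, with adjusted p values from 0.0502 to 0.274, and its value ran from -0.78 without CTD replicate 1 to -1.85 without CTD replicate 3.

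In the other groups Cyp8b1 did not pass the threshold, with means below control for some and above it for others. THI rats had 146, 87.1, 277 and 218 CPM (log2 fold change -0.52 ± 0.33, adjusted p = 0.686) and THI+CTD rats had 226, 78.9, 110.3 and 216 CPM (-0.73 ± 0.34, adjusted p = 0.251). IMZ rats had 170, 278, 466 and 479 CPM (0.41 ± 0.32, adjusted p = 0.761), and 2 of them lay above every control. The THI+IMZ rats, in which Cyp7a1 was lowest, had 204, 162, 272 and 394 CPM of Cyp8b1 (-0.02 ± 0.33, adjusted p = 1), centred on the control level. IMZ+CTD rats had 301, 275, 426 and 187 CPM (0.18 ± 0.33, adjusted p = 0.844). The F test over the 6 treatments gave an adjusted p of 0.0635 for Cyp8b1, which passed the threshold without THI replicate 3 (0.0439), IMZ replicate 1 (0.0303), CTD replicate 3 (0.0174) or THI+CTD replicate 1 (0.0493).

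Akr1d1 (ENSRNOG00000013004), the steroid 5β-reductase shared by both pathways, was higher with CTD and with THI+CTD. Controls had 349, 281, 340, 367, 370, 426, 386 and 420.1 CPM. CTD rats had 441, 600 and 565 CPM and THI+CTD rats had 520.3, 551, 521 and 477 CPM, so that both groups lay above every control. The rise was 1.46-fold with CTD (log2 fold change 0.54 ± 0.13, adjusted p = 0.00415, edgeR) and 1.41-fold with THI+CTD (0.49 ± 0.12, adjusted p = 0.0108, edgeR). With THI+CTD, 4.39% of all genes were called and every treated rat lay above every control for 2.14% of them, while the latter share was 5.33% with CTD. The CTD call ended without CTD replicate 2 (adjusted p = 0.0535), and the THI+CTD call held without any 1 of the 31 rats.

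In the other groups Akr1d1 did not pass the threshold. The log2 fold change was 0.27 ± 0.12 with THI (adjusted p = 0.501), 0.36 ± 0.12 with THI+IMZ (adjusted p = 0.153), 0.21 ± 0.12 with IMZ+CTD (adjusted p = 0.4698) and 0.02 ± 0.12 with IMZ (adjusted p = 1). The THI+IMZ value rests in large part on replicate 4, at 684 CPM beside 424, 384 and 401 CPM in the other rats of its group, and was 0.14 without it. The F test over the 6 treatments gave an adjusted p of 0.105 for Akr1d1 and 0.0119 without that rat. Of the 23 treated rats, 21 lay above the control median of 369 CPM.

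Neither hydroxylase of the acidic pathway was called in any of the 6 comparisons. Cyp27a1 (ENSRNOG00000017188), the mitochondrial sterol 27-hydroxylase, had 412 to 527 CPM in controls and 341, 452 and 372 CPM with CTD (log2 fold change -0.25 ± 0.09, adjusted p = 0.0569), just outside the threshold. It passed without any one of 5 rats (control replicates 1 and 2, CTD replicate 2, IMZ+CTD replicates 1 and 3), with adjusted p values between 0.0104 and 0.0499, and by DESeq2 (adjusted p = 0.0208). In the other 5 groups its log2 fold change ran from -0.15 ± 0.08 with IMZ+CTD to 0.06 ± 0.08 with THI+IMZ. Cyp7b1 (ENSRNOG00000009730), the oxysterol 7α-hydroxylase, had 2.73 to 3.59 CPM in controls, the lowest counts of the 10 genes. With THI+IMZ it had 2.90, 2.28, 2.28 and 2.20 CPM (log2 fold change -0.37 ± 0.14, adjusted p = 0.239) and with CTD 3.82, 3.33 and 4.65 CPM (0.33 ± 0.14, adjusted p = 0.138). The THI+IMZ rats other than replicate 1 lay below every control. The F test over the 6 treatments gave an adjusted p of 0.0738 for Cyp7b1, which passed the threshold without THI+IMZ replicate 1 (0.0497) or THI+CTD replicate 1 (0.0344), or with filterByExpr in place of the filter on the sum (0.0395).

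The conjugation genes were not called in any of the 6 comparisons. Baat (ENSRNOG00000007395) had 814 to 950 CPM in controls (coefficient of variation 5.54%), and its log2 fold changes lay between -0.13 ± 0.08 with IMZ+CTD and 0.17 ± 0.09 with CTD. Slc27a5 (ENSRNOG00000019626) had 728 to 994 CPM in controls. It was highest with THI+IMZ at 1397, 1044, 990 and 1205 CPM (log2 fold change 0.36 ± 0.12, adjusted p = 0.190), where 3 of 4 rats lay above every control. The same held for 3 of 4 rats with IMZ (0.22 ± 0.12, adjusted p = 0.697). For Baat the approximate 95% intervals over the 6 comparisons lay between -0.29 and 0.33.

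**Figure D2:**
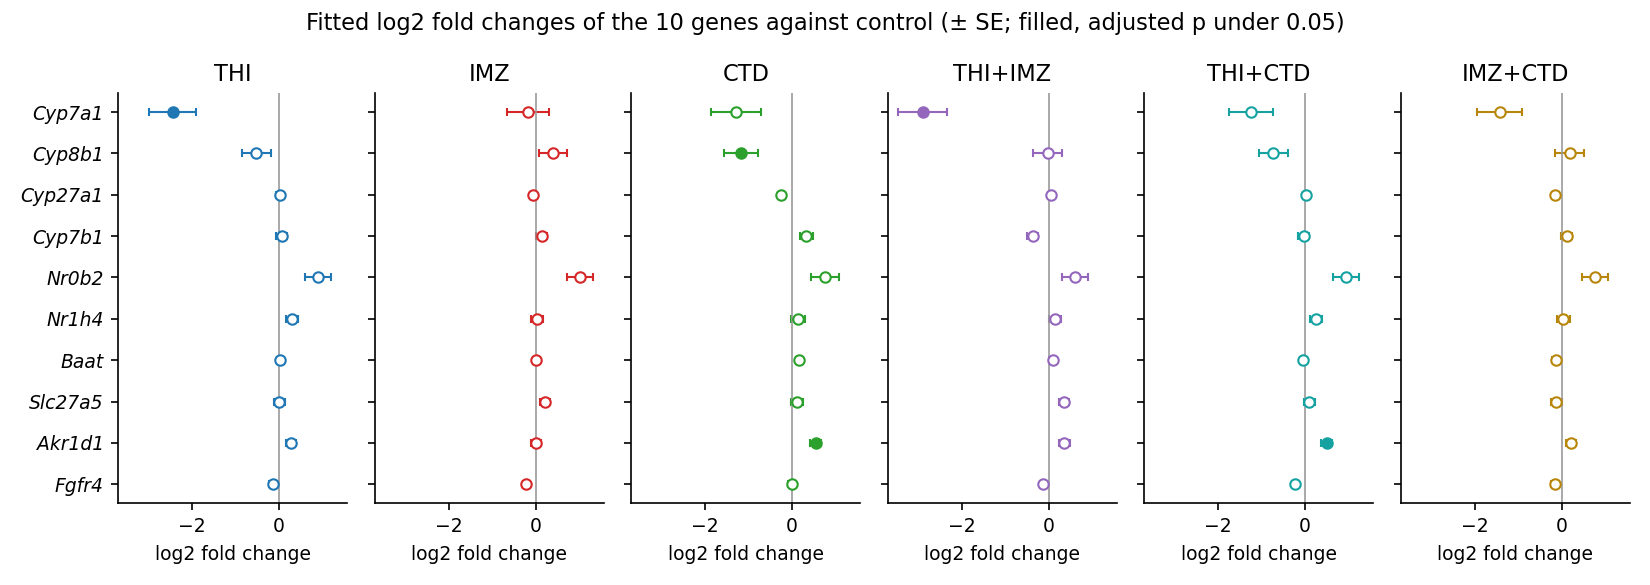
Fitted log2 fold change against control (horizontal axis) of the 10 genes in the 6 treated groups, with the SE as bars and filled points for an adjusted p under 0.05. The filled points are Cyp7a1 with THI (-2.45) and THI+IMZ (-2.90), Cyp8b1 with CTD (-1.17) and Akr1d1 with CTD (0.54) and THI+CTD (0.49), and Nr0b2 lies to the right of 0 in all 6 panels.

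Nr0b2 (ENSRNOG00000007229), which encodes the corepressor SHP and whose promoter window is printed above, had a higher mean in every treated group, with no single comparison past the threshold. Controls had 19.9, 14.3, 8.82, 16.998, 17.5, 10.6, 8.27 and 11.6 CPM. THI rats had 7.87, 42.5, 29.6 and 21.4 CPM, IMZ rats 41.3, 33.1, 19.5 and 16.9 CPM and CTD rats 24.1, 25.3 and 19.3 CPM. In each of these groups some rats exceeded every control, and in THI 1 rat also lay below every control.

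Among the mixtures, THI+CTD rats had 31.1, 21.6, 22.5 and 28.5 CPM of Nr0b2, all above the highest control. THI+IMZ rats had 29.3, 16.3, 23.1 and 14.1 CPM and IMZ+CTD rats had 32.7, 14.2, 14.7 and 30.5 CPM, both overlapping with the controls. The log2 fold change ran from 0.61 ± 0.30 with THI+IMZ to 1.03 ± 0.30 with IMZ. The smallest adjusted p was 0.0684, with THI+CTD (0.94 ± 0.30). That value passed the threshold without control replicate 1 (adjusted p = 0.0471) or THI replicate 1 (adjusted p = 0.0295), and the value with THI passed without the THI rat at 7.87 CPM (log2 fold change 1.21, adjusted p = 0.0445). Fits of only the groups compared called Nr0b2 with THI+CTD (adjusted p = 0.0116) and with CTD (adjusted p = 0.0412). Of the 23 treated rats, 22 lay above the control median of 12.9 CPM. The F test over the 6 treatments gave an adjusted p of 0.947 for Nr0b2.

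Fgfr4 (ENSRNOG00000016763), the receptor for the gut signal, did not pass the threshold in any comparison, with a fitted value below 0 in each. Controls had 26.5 to 32.0 CPM with a median of 30.2 CPM, and 21 of the 23 treated rats lay below that median. The lowest means were those of THI+CTD, at 23.7, 25.6, 23.4 and 27.8 CPM (log2 fold change -0.24 ± 0.07, adjusted p = 0.0619), and of IMZ, at 25.9, 26.1, 27.2 and 22.8 CPM (-0.22 ± 0.07, adjusted p = 0.315). The THI+CTD value passed the threshold without control replicate 1 (adjusted p = 0.0432) or THI+CTD replicate 4 (adjusted p = 0.0306), and by DESeq2 (adjusted p = 0.0192). With CTD the 3 rats had 27.7, 30.3 and 30.3 CPM (-0.01 ± 0.08, adjusted p = 0.980). Nr1h4 (ENSRNOG00000007197), which encodes FXR, had 59.8 to 85.7 CPM in controls and log2 fold changes between 0.03 ± 0.14 with IMZ and 0.29 ± 0.14 with THI, and none passed the threshold.

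Since Nr0b2, Akr1d1, Cyp7a1 and Fgfr4 leaned the same way in most treated rats, the mean of the 6 treated groups was set against the controls in the same fit. This comparison was chosen after the values had been seen, and it repeats the control rats of the 6 comparisons above. Of the 10 genes, 3 passed the threshold, against 5.74% of all genes. Cyp7a1 was lower, at 33.4% of control (log2 fold change -1.58 ± 0.30, adjusted p = 0.00126, edgeR). Nr0b2 was 1.78-fold higher (0.84 ± 0.22, adjusted p = 0.0166, edgeR) and Akr1d1 1.25-fold higher (0.32 ± 0.08, adjusted p = 0.0158, edgeR). Fgfr4 stayed outside the threshold at -0.15 ± 0.05 (adjusted p = 0.0628) and passed it without any one of control replicate 1, THI replicate 4, THI+CTD replicate 4 and IMZ+CTD replicate 1, with adjusted p values between 0.0412 and 0.0483. The Nr0b2 call ended without control replicate 7 (adjusted p = 0.0502).

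**Figure D3:**
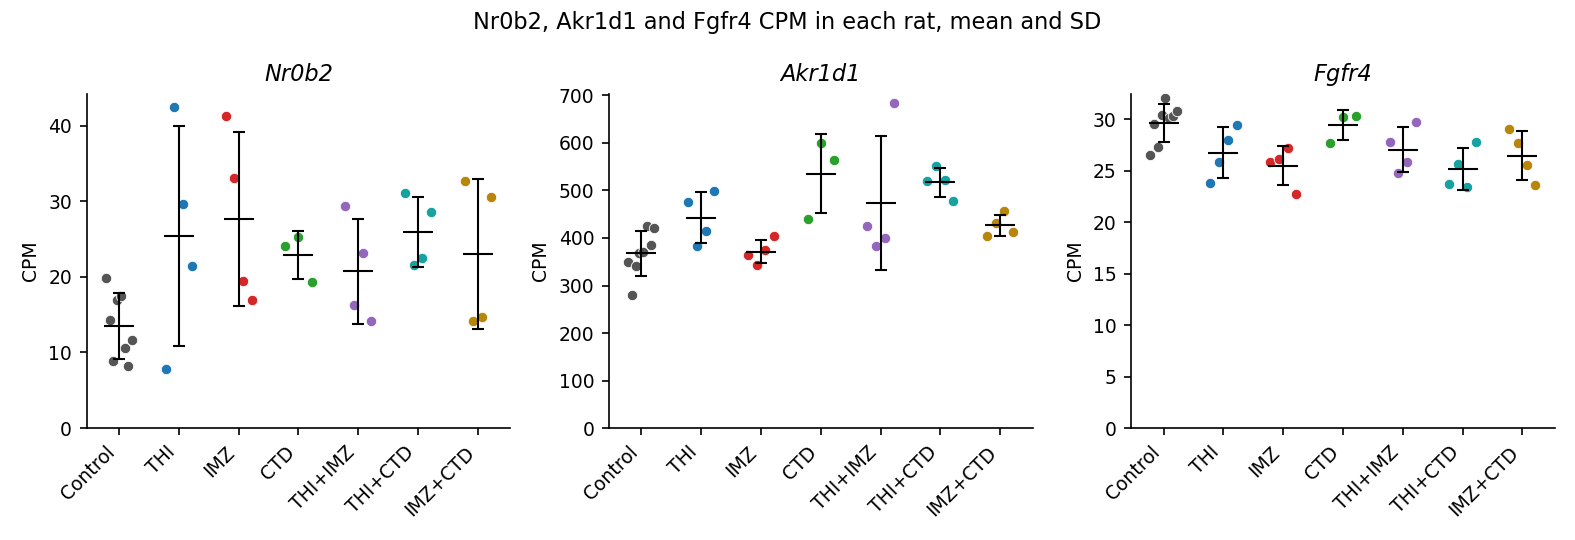
Level in CPM of Nr0b2, Akr1d1 and Fgfr4 in each of 31 rats by group, on linear axes from 0, with the mean and SD of each group in black. Nr0b2 was above the control median of 12.9 CPM in 22 of 23 treated rats, Akr1d1 above 369 CPM in 21, and Fgfr4 below 30.2 CPM in 21.

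Whether Cyp7a1 varied together with its regulators from rat to rat was examined on deviations from the group means of log2 CPM, so that differences between groups did not enter. Over the 31 rats, Cyp7a1 and Nr0b2 had a Pearson r of -0.15 (permutation p = 0.494) and a Spearman rho of -0.03 (permutation p = 0.897), and r was 0.00018 without the 2 rats farthest from the median of Cyp7a1. Of the 9 genes set against Cyp7a1 in this way, Cyp27a1 had the largest r at 0.425 (permutation p = 0.0383, adjusted 0.345) with rho 0.432 (permutation p = 0.0334, adjusted 0.301), and r was 0.418 without the 2 farthest rats. No pair passed the threshold after Benjamini-Hochberg adjustment over the 9.

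The mixtures were also set against the dose-weighted sum of the log2 fold changes of their compounds, counting 0.5 of the THI and IMZ values and 0.47 of the CTD value. The study's methods give this formula for IMZ+CTD, and its supplementary figures also set the mixtures with THI against a theoretical value. The weights for the mixtures with THI were taken here by the same rule. None of the 10 genes passed the threshold in any of the 3 mixtures, while 0.0151% of all genes did with THI+IMZ, 0.286% with THI+CTD and 1.16% with IMZ+CTD. Before adjustment, 2, 1 and 2 of the 10 genes had p under 0.05, and DESeq2 called 0 in each mixture too. Ranked by p among the 19904 genes tested, Cyp7b1 and Cyp7a1 stood at 94 and 194 with THI+IMZ. Fgfr4 stood at 1666 with THI+CTD, and Baat and Slc27a5 at 1161 and 2337 with IMZ+CTD. Slc27a5 with THI+IMZ, at an unadjusted p of 0.055 (edgeR), stood at 1395. An unadjusted p near 0.05 was thus common among all genes in all 3 mixtures. The largest difference was that of Cyp7a1 with THI+IMZ, where -2.90 was observed beside a weighted sum of -1.31 (difference -1.59 ± 0.52, adjusted p = 0.492). Its approximate 95% interval ran from -2.62 to -0.56. For Cyp7a1 the difference was 0.59 ± 0.48 with THI+CTD (adjusted p = 0.742) and -0.74 ± 0.50 with IMZ+CTD (adjusted p = 0.540). For Nr0b2 the observed value was below the weighted sum by 0.36 ± 0.31 with THI+IMZ and stood within 0.13 of it in the other mixtures.

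**Figure D4:**
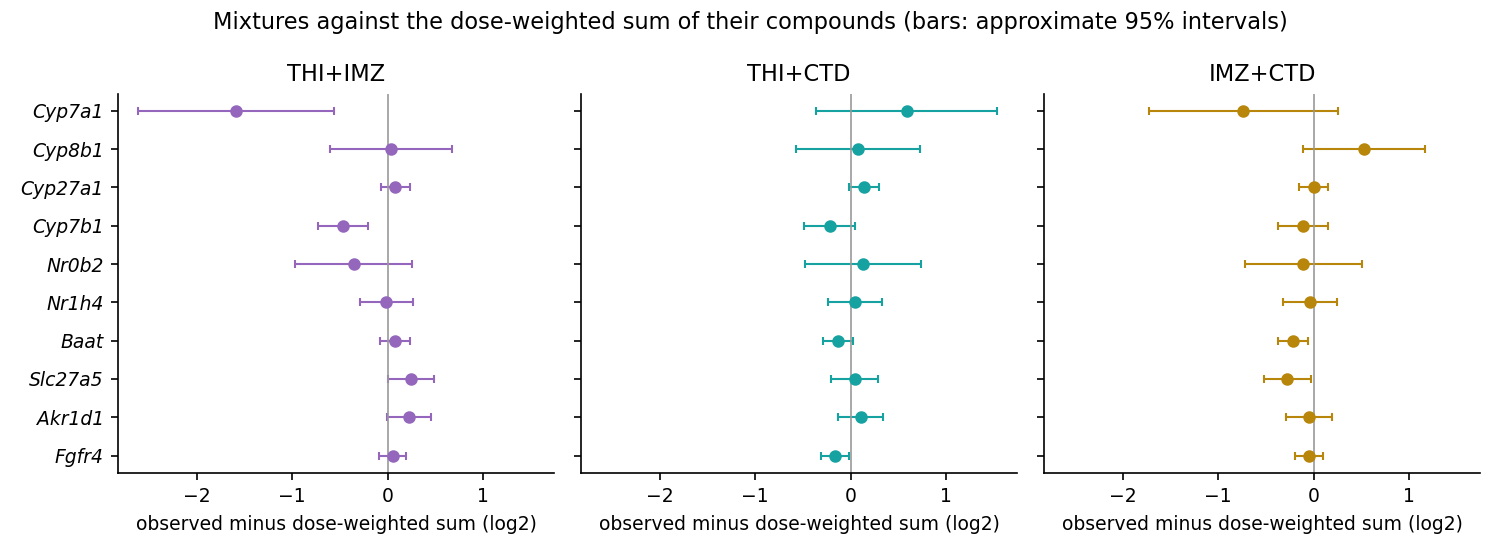
Observed log2 fold change minus the dose-weighted sum of the single compounds (horizontal axis) for the 10 genes in the 3 mixtures, with bars for approximate 95% intervals. The bars of Cyp7a1 span -2.62 to -0.56 with THI+IMZ and include 0 in the other mixtures, and no point passed the threshold after adjustment.

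Lists of related genes were read beside the 10 genes, each count against the share of all genes called in the same comparison: 0.543% with THI, 0.251% with IMZ, 12.7% with CTD, 1.18% with THI+IMZ, 4.39% with THI+CTD and 1.46% with IMZ+CTD. Of 11 listed bile acid transporters that were tested, 3 were called with CTD, 2 each with THI and THI+CTD and 1 each with the other 3 treatments. The basolateral exporter Abcc3 rose in all 6 comparisons, from 6.97 to 25.2 CPM in controls to 28.2 CPM or more in every treated rat. Its log2 fold change lay between 1.65 ± 0.23 with IMZ+CTD (adjusted p = 0.000164, edgeR) and 2.82 ± 0.23 with THI+CTD (adjusted p = 8.58e-10, edgeR). The uptake carrier Slco1a4 rose with THI (1.09 ± 0.25, adjusted p = 0.0370), CTD (0.96 ± 0.28, adjusted p = 0.0197) and THI+CTD (1.02 ± 0.25, adjusted p = 0.0154), and Slco1b3 rose with CTD (0.39 ± 0.09, adjusted p = 0.00317). The canalicular bile salt pump Abcb11, a known FXR target, had log2 fold changes between -0.09 ± 0.09 and 0.03 ± 0.10, and the uptake carrier Slc10a1 between -0.11 ± 0.11 and 0.28 ± 0.12. Neither passed the threshold. Slc51a and Slc51b, the basolateral bile acid exporter that FXR is known to induce, had at most 3 and 7 counts in any library. No listed transporter fell past the threshold in any comparison.

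**Figure D5:**
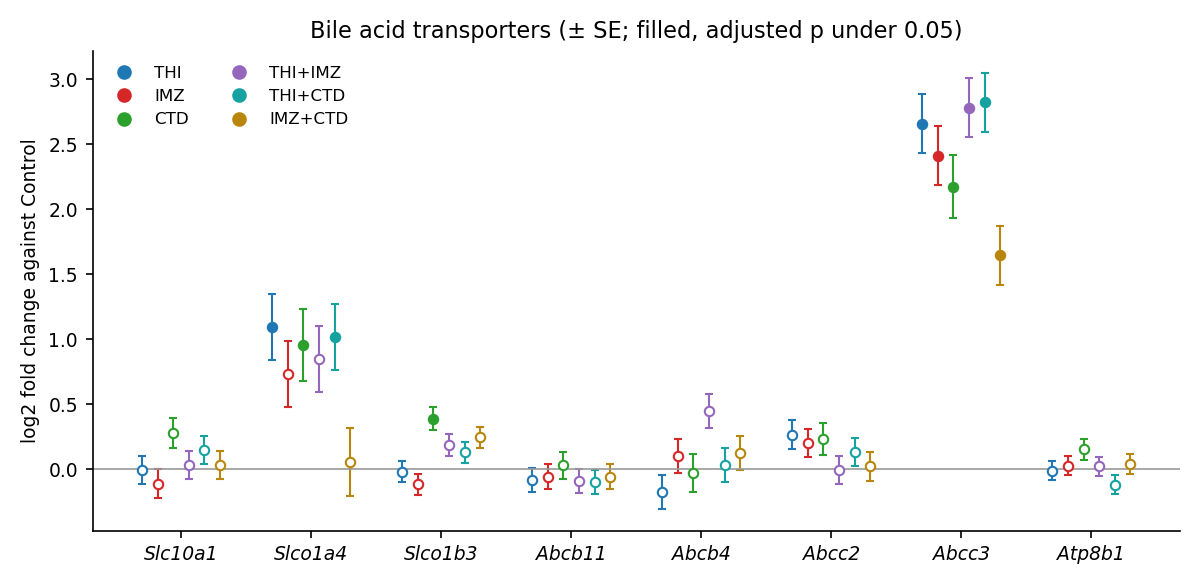
Fitted log2 fold change against control (vertical axis, SE as bars) of 8 bile acid transporters in the 6 treated groups, filled where the adjusted p was under 0.05. Abcc3 is filled in all 6 groups, between 1.65 and 2.82, and Abcb11 and Slc10a1 lie near 0.

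Of the 12 other bile acid enzymes listed, 3 were called with CTD, 1 each with THI, THI+IMZ and THI+CTD and 0 with IMZ and IMZ+CTD, beside all-gene shares of 12.7%, 0.543%, 1.18% and 4.39% in the first 4. The calls with THI, THI+IMZ and THI+CTD were all Ephx1, an epoxide hydrolase better known for xenobiotic metabolism, which rose by 1.27 ± 0.24, 1.24 ± 0.24 and 1.60 ± 0.24 on the log2 scale. With CTD, Ephx1 rose by 1.31 ± 0.26 (adjusted p = 0.000627, edgeR), and the oxysterol hydroxylase Cyp39a1 (log2 fold change -0.58 ± 0.12, adjusted p = 0.00179) and the peroxisomal thiolase Scp2 (-0.65 ± 0.10, adjusted p = 2.46e-05) fell. Hsd3b7, which follows Cyp7a1 in the pathway, was not called in any comparison (0.03 ± 0.10 to 0.23 ± 0.10).

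Of 17 tested regulators, 4 were called with CTD, 3 with THI+IMZ, 2 each with THI+CTD and IMZ+CTD and 0 with THI and IMZ, where 12.7%, 1.18%, 4.39% and 1.46% of all genes were called in the first 4. The xenobiotic receptor CAR (Nr1i3) rose with CTD (log2 fold change 1.10 ± 0.29, adjusted p = 0.00987), THI+IMZ (1.24 ± 0.26, adjusted p = 0.0122) and THI+CTD (1.37 ± 0.26, adjusted p = 0.00195). Zfp36l1, an RNA-binding protein that destabilizes the Cyp7a1 message, fell with CTD (-1.25 ± 0.19, adjusted p = 2.46e-05) and THI+CTD (-0.63 ± 0.16, adjusted p = 0.0182). With THI+IMZ, where Cyp7a1 was lowest, the other calls were Ppara (0.73 ± 0.14, adjusted p = 0.00312) and the bile acid-induced repressor Mafg (0.47 ± 0.11, adjusted p = 0.0256). Other calls were Rxra (-0.34 ± 0.09, adjusted p = 0.00801) with CTD, and Nr1i2 (-0.37 ± 0.09, adjusted p = 0.0368) and the clock output factor Dbp (-1.09 ± 0.18, adjusted p = 0.000968) with IMZ+CTD. LRH-1 (Nr5a2) had log2 fold changes between -0.14 ± 0.06 and 0.06 ± 0.05 and Hnf4a between -0.19 ± 0.13 and 0.01 ± 0.12, and neither was called. The row listed as Fgf19 had 0 counts in all 31 libraries, which allows a level of up to 0.0943 CPM (3 counts) in the shallowest.

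Cyp7a1 is known to follow the circadian clock and feeding, so lists of such genes were read beside it. Of 11 tested clock genes, 1 was called with THI, 2 with CTD, 1 with THI+IMZ, 1 with THI+CTD, 4 with IMZ+CTD and 0 with IMZ, all lower. The counts of 2 with CTD and 4 with IMZ+CTD stand beside 12.7% and 1.46% of all genes, and the median log2 fold change of the 11 genes with IMZ+CTD was -0.73, beside -0.03 over all genes. All-gene calls with IMZ+CTD numbered 290, and 98 without IMZ+CTD replicate 3. Per1 fell by 1.45 ± 0.27 with THI, 0.96 ± 0.29 with CTD, 1.12 ± 0.26 with THI+IMZ and 1.38 ± 0.27 with IMZ+CTD on the log2 scale. It did not pass the threshold with THI+CTD (-0.81 ± 0.26, adjusted p = 0.0669) or IMZ (-0.11 ± 0.25, adjusted p = 0.943). The other clock calls with IMZ+CTD were Dbp, Tef (-0.73 ± 0.18, adjusted p = 0.0332) and Hlf (-1.003 ± 0.24, adjusted p = 0.0211), and Nfil3 fell with CTD (-0.53 ± 0.12, adjusted p = 0.00350) and THI+CTD (-0.50 ± 0.11, adjusted p = 0.00558). Of 13 feeding and fasting genes, 1 was called with CTD and 2 with THI+CTD, beside 12.7% and 4.39% of all genes. Igfbp1 fell with both (log2 fold changes -2.77 ± 0.73 and -3.34 ± 0.66), and Cpt1a, the gatekeeper of mitochondrial fatty acid oxidation, rose with THI+CTD (1.21 ± 0.30, adjusted p = 0.0159). The gluconeogenic enzyme Pck1 had its smallest adjusted p with THI+CTD (-1.08 ± 0.35, adjusted p = 0.0730). The median log2 fold change of the 13 genes ran from -0.41 with IMZ+CTD to 0.51 with THI+CTD, beside -0.03 over all genes in both. The part of these genes in the Cyp7a1 values was not tested.

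Of 16 genes of cholesterol supply and LXR targets, 2 were called with CTD and 2 with THI+CTD, and 0 with the other 4 treatments. The 2 of 16 with CTD is near the all-gene share of 12.7%, and that with THI+CTD stands beside 4.39%. The sterol exporter Abcg8 fell with CTD (log2 fold change -1.56 ± 0.52, adjusted p = 0.0446) and THI+CTD (-1.65 ± 0.46, adjusted p = 0.0355). The endosomal cholesterol carrier Npc1 fell with CTD (-0.43 ± 0.13, adjusted p = 0.0247), and the HDL receptor Scarb1 rose with THI+CTD (0.29 ± 0.09, adjusted p = 0.0466).

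Markers of liver cell types were read in the same way. Of 10 hepatocyte markers, 2 fell with CTD (Tat and Asgr1) and 3 with THI+CTD (Tat, Asgr1 and Serpina1), the groups where Akr1d1 rose. Apoa1 rose with THI+IMZ (0.85 ± 0.18, adjusted p = 0.0121), where Cyp7a1 was lowest, and no other hepatocyte marker was called. Of 8 Kupffer cell markers, 2 fell with CTD (Cd68 and Csf1r) and 2 with THI+CTD (Cd163 and Csf1r). The 8 markers summed to 322 to 517 CPM with CTD and 328 to 453 CPM with THI+CTD, beside 390.1 to 649 CPM in controls. Without a call, the sums were 337 to 460 CPM with THI+IMZ and 295 to 535 CPM with IMZ+CTD. They were 386 to 635 CPM with THI and 476 to 560 CPM with IMZ.

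Of 8 stellate cell and fibroblast markers, Col3a1 rose and Reln fell with CTD, and Col1a1 rose while Reln and Hgf fell with THI+CTD. Their summed levels were 411 to 564 CPM with CTD and 382 to 523 CPM with THI+CTD, beside 297 to 502 CPM in controls. In the other treated groups the sums lay between 348 and 493 CPM. Of 6 endothelial markers, Kdr fell with CTD and THI+CTD, while Clec4g (-0.68 ± 0.22, adjusted p = 0.0691) and Stab2 (-0.23 ± 0.12, adjusted p = 0.307) were not called with THI+CTD. Of 8 lymphocyte markers, Cd4 fell with THI+CTD, while Ptprc had -0.58 ± 0.18 there (adjusted p = 0.0626) and Cd3d had 2.26 ± 0.95 with CTD (adjusted p = 0.125). Among the cholangiocyte markers, Cftr had 0.91 ± 0.32 with CTD (adjusted p = 0.0601) and Krt19 had 0.64 ± 0.22 with THI+CTD (adjusted p = 0.101). No marker of these 4 lists was called with THI, IMZ, THI+IMZ or IMZ+CTD. The part of these cells in the Cyp7a1, Akr1d1 and Cyp8b1 values was not tested.

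Read as a list, the 10 genes did not shift to one side. The median of their log2 fold changes came to 0.02 for THI, 0.02 for IMZ and 0.12 for CTD, and among the mixtures to 0.08 (THI+IMZ), -0.002 (THI+CTD) and -0.04 (IMZ+CTD), beside medians over all genes between -0.07 and -0.01. With IMZ and IMZ+CTD none of the 10 genes was called by edgeR or by DESeq2, with 0.251% and 1.46% of all genes called by edgeR. An unadjusted p under 0.05 was found for 2 and 3 of the 10. Ranked by p among the 19904 genes tested, Nr0b2 and Fgfr4 stood at 163 and 391 with IMZ. With IMZ+CTD, Cyp7a1, Nr0b2 and Fgfr4 stood at 973, 1313 and 2052, so such values were common among all genes there.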

How the data were processed

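Total liver RNA of 31 rats was sequenced with a stranded total RNA kit. The authors trimmed adapters with Skewer, checked quality with FastQC 0.11.5, and used STAR 2.5.2b both to align reads to the rat build Rnor_5.0 and to count them by gene. The deposited counts are whole numbers without normalization. The deposited signal table holds the counts divided by DESeq2 size factors, which was checked for all 19904 genes to a relative deviation of 1e-14, so a count test on the recovered reads is the same test. All 10 genes were in both tables.

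The tests used edgeR 4.0.16 in R 4.3.3 on the counts: genes whose counts summed to 2 or more, TMM scaling, 1 model with a mean for each of 7 groups, and the quasi-likelihood F test with Benjamini-Hochberg adjustment. The SE was taken from the log2 fold change and F, and approximate 95% intervals assume a normal distribution. Log2 CPM used a prior count of 2. DESeq2 1.42.0 served as an alternative, besides its size factors, other filters, exact dose ratios, separate fits of the groups under comparison, a replicate block, thinned libraries and the omission of each rat. Correlations used 100000 permutations within groups. The pipeline was tested on simulated data. Plots were drawn with matplotlib 3.10.9.

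Groups came from the sample labels, and the study's methods call the rats independent replicates. The 10 genes and all lists were chosen with earlier results of these data known, so the counts over lists are descriptions. All 10 genes were named, and of each list the 3 genes with the smallest adjusted p in any comparison with control. Other listed genes were named after their values were seen, for their known role or as further calls of a list, and some listed genes are not reported here. Listed symbols not found in the table were left out. Library totals are given with the results.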

Additional observations from a re-analysis of the deposited data

Results flagged for a closer look

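In 1 of the 60 sets of 4 or 8 rats examined for the 10 genes, a single rat stood apart from its group. Cyp7b1 was at 2.90 CPM in THI+IMZ replicate 1, beside 2.20 to 2.28 CPM in the other 3 rats of the group, a gap of 0.863 of the group's range. Chance alone marks about 1 group in 20 at this limit. The log2 fold change of Cyp7b1 with THI+IMZ was -0.37 with this rat and -0.47 without it, and passed the threshold in neither case.

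The effect of treatment on Cyp7a1 differed among the 6 treatments, with an adjusted p of 0.0200 in the F test of edgeR and fitted log2 fold changes from -2.90 to -0.17. The IMZ rats alone spanned 51.7 to 469 CPM, a 9.08-fold range, and without the highest of them the adjusted p was 0.104.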

How the results depend on the processing

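Values are given as the number of the 10 genes past the threshold. Size factors of DESeq2, no filter and thinned counts moved none of these numbers by over 1.5 times. The test of DESeq2 called 2 with THI+CTD and 5 in the difference among treatments, each 1 in the main analysis, and filterByExpr called 2 and 2. A fit of only the groups compared called 2 with THI+CTD. Whether the replicate numbers pair the rats was not settled. Of 78 pairs with the same number, 24 had a correlation of deviations over 0.1, with a range of -0.305 to 0.483. No pairs with different numbers were set beside these. With the number as a block, which sets aside control replicates 5 to 8 because no treated rat shares their numbers, 0 genes were called with THI and 0 with THI+IMZ (Cyp7a1, adjusted p = 0.174 and 0.0863), 2 in the difference among treatments, and 1 in the mean of the 6 treatments, where the main analysis had 3. Leaving out each rat in turn gave 0 to 1 with THI, 1 to 3 with CTD, 1 to 1 with THI+IMZ, 1 to 3 with THI+CTD, 0 to 3 in the difference among treatments, 2 to 4 in the mean of the 6 treatments, and 0 with IMZ, IMZ+CTD and the 3 dose-weighted sums. The cause was not tested. Over all genes, DESeq2 called 199 with THI, 150 with IMZ, 435 with THI+IMZ, 1386 with THI+CTD, 567 with IMZ+CTD and 2410 in the difference among treatments, where edgeR called 108, 50, 235, 873, 290 and 1159. For the dose-weighted sums DESeq2 called 54, 174 and 603, where edgeR called 3, 57 and 230. The block called 45 with THI, 23 with IMZ, 1571 with CTD (2518 without it), 53 with THI+IMZ, 348 with THI+CTD, 80 with IMZ+CTD and 240 in the mean of the 6 treatments (1143 without it). A fit of only the groups compared called 93 with IMZ, and filterByExpr called 391 for the sum of IMZ+CTD. Leaving out 1 rat moved the all-gene count by over 1.5 times with THI (67 and 68 without THI replicates 1 and 2), IMZ (28 and 31 without IMZ replicates 3 and 4), CTD (1470 without CTD replicate 1), THI+IMZ (143 without THI+IMZ replicate 4), THI+CTD (577 and 450 without THI+CTD replicates 2 and 3) and IMZ+CTD (161, 98 and 132 without IMZ+CTD replicates 2, 3 and 4). Of 39 values of single genes with an unadjusted p under 0.05, none changed direction in 1483 recomputations, 17 lost a call and 35 gained one. Groups of 3 or 4 rats and the wide spread of Cyp7a1 among controls limit what these comparisons can resolve.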

Other observations

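The 5 genes whose log2 CPM followed Cyp7a1 most closely over the 31 rats were looked up among 9957 genes with a symbol and an average log2 CPM above 1. They were Ttyh2 (Pearson r 0.754, Spearman rho 0.725), Jarid2 (0.704 and 0.687), Pkdcc (0.696 and 0.650), Wdr6 (0.685 and 0.723) and SLC45A4 (0.681 and 0.672). They were picked as the highest of many, so no p is given, and the rats share groups and libraries. On deviations from the group means the same r was 0.420, 0.516, 0.519, 0.382 and 0.479.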
